A study of Oryctolagus cuniculus with 20 samples.

Results

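The genes described here are 3 groups of stress and growth signal response genes in rabbit (Oryctolagus cuniculus) blood vessels: the immediate early genes (the FOS, JUN, EGR, NR4A, IER and ZFP36 families with ATF3 and MYC), the Krüppel-like factors (KLF) and the dual specificity phosphatases (DUSP). Members were matched by gene symbol, with transcripts summed per gene. The symbols matched 50 of the 23669 genes in the table. Of these 50, 35 reached at least 1 FPKM in at least 4 of the 20 libraries and could be tested: 15 immediate early genes, 6 KLF and 14 DUSP genes. Symbols such as JUNB, JUND, KLF2, IER2 and IER5 were not matched and are not analysed here.

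The study moved a piece of the common carotid artery into a vein. Total RNA of the graft was sequenced on day 14 (graft day 14) and on day 30 (graft day 30) after surgery, each with the unoperated carotid artery of the opposite side (control day 14, control day 30). Unoperated external jugular vein formed the last group. Each of the 5 groups holds 4 libraries, called biological replicates, and nothing says that each came from a separate animal, so p-values measure the spread between these samples. The labels give neither age nor strain, apply the same treatment word to all groups, unoperated vessels included, and name the cell line HASMC for every sample although the other labels describe tissue.

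Immediate early genes are silent or low in resting cells and are transcribed within minutes of a growth factor, injury, stretch or stress signal, without new protein synthesis, through MAP kinases acting on serum response factor and its partners. Their products are transcription factors (FOS and JUN form AP-1) and regulators of mRNA decay such as ZFP36, and their own mRNAs are short-lived. Many DUSP phosphatases, though not all, remove phosphate from MAP kinases, and several of them are induced by the kinase they switch off. KLF proteins are zinc finger factors, among which KLF15 and KLF9 are known as glucocorticoid-induced genes and KLF15 as a restraint on cardiac and smooth muscle remodelling. These roles are known from mouse and human.

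Values are FPKM, which are scaled per length and per library, so read numbers behind them are unknown. A value of 0 may stand for a failed estimate. Summed FPKM ran from 327806 to 671582 per library. Libraries of control day 14 were nearly identical to each other: the SD of log2 values had a median of 0.0733 among the 1265 genes whose mean reached 30 FPKM. The other groups had medians from 0.135 (vein) to 0.324 (graft day 14). Each library was also set against a weighted mean of the other 3 of its group. Every control day 14 library had a median absolute log2 difference of 0.0791 to 0.0823. In each other group the closest library was marked as mixture-like, at 0.0775 to 0.0879. These were graft day 14 replicate 3, control day 30 replicate 2, graft day 30 replicate 4 and vein replicate 4. The next closest libraries of these groups lay at 0.12, 0.156, 0.172 and 0.103. The mark is thus a rank within the group, and whether any library is a mixture was not tested. Counts are therefore also given with control day 14 counted as 1 sample, without those 4 mixture-like libraries, and with both changes. Smooth muscle markers (11 of 12 found, SMTN at 0 in all libraries) summed to between 9152 and 9675 FPKM in control day 14 and between 6750 and 9701 FPKM in control day 30, so the arteries carried the markers of their labelled tissue. They summed to between 676 and 1027 FPKM in graft day 14, between 1529 and 1956 FPKM in graft day 30, and between 4381 and 4741 FPKM in vein.

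Among the 50 genes, 15 stayed under the level needed for a test. DUSP21, DUSP27, KLF14 and KLF17 were listed at 0 in all 20 libraries. EGR1, the classical early zinc finger factor, was listed between 0 and 2.39 FPKM, and NR4A1, an early orphan nuclear receptor, between 0 and 0.73 FPKM, while their relatives EGR2 and NR4A2 reached 21.4 and 65.1 FPKM. The other 9 (DUSP9, DUSP13, DUSP22, EGR4, KLF1, KLF3, KLF5, KLF8 and KLF12) lay between 0 and 2.18 FPKM.

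On day 14 the grafts had lost most of the KLF15 and KLF9 and nearly all of the DUSP26 message of the opposite artery, and held more ZFP36L1, EGR2, EGR3 and DUSP4. Changes are differences of mean log2(FPKM + 1), a scale that understates the change of low genes, tested with limma over 8657 genes with Benjamini-Hochberg adjusted p-values, and a gene is called where the adjusted p is under 0.05. Of the 35 genes, 9 were called higher and 5 lower in graft day 14 than in control day 14. Across all genes tested, 36.5% were called higher and 17% lower, so the share of members called was below that of all genes in the upward direction (9 of 35) and near it in the downward direction (5 of 35). By group, 4 of 15 immediate early genes were higher and 0 lower, 0 of 6 KLF genes were higher and 3 lower, and 5 of 14 DUSP genes were higher and 2 lower. Scaling mattered to the split: the median change of all genes was 0.26, and 0.04 with median-of-ratios scaling, which gave 6 members higher and 6 lower, while TPM scaling gave 7 and 5 and quantile normalization 6 and 8. In whole vessel RNA, fewer cells of a type and less RNA per cell cannot be told apart. The calls of KLF15, KLF9, DUSP26, DUSP4, ZFP36L1 and EGR2 held under all alternatives in which they were fitted. With control day 14 as 1 sample 5 genes were called higher and 3 lower, and with both changes 3 and 3: the calls of DUSP23, DUSP5, DUSP6, DUSP7, KLF7 and NR4A2 ended with the first (adjusted p from 0.059 to 0.288), and those of DUSP19 and EGR3 also with both (adjusted p = 0.124 and 0.0604).

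By day 30, 4 of the 35 genes were called higher and 4 lower in the graft than in its control, against 26% and 11.6% of all genes. DUSP26, KLF15, KLF9 and DUSP23 were lower, and DUSP4, DUSP19, ZFP36L2 and KLF6 higher. With median-of-ratios scaling, TPM scaling and quantile normalization alike, 2 were higher and 5 lower. Of the 15 immediate early genes, ZFP36L2 was the 1 called. DUSP26, KLF15 and DUSP4 held in all alternatives that could be fitted. Without the 4 mixture-like libraries 2 genes were called higher, and with both changes 1 higher and 2 lower: KLF6, KLF9 and ZFP36L2 lost their calls with the first (adjusted p from 0.117 to 0.216), and DUSP19 and DUSP23 with both (adjusted p = 0.0618 and 0.0932).

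The unoperated arteries differed between the days in the immediate early genes. Of the 15, 10 were called higher in control day 30 than in control day 14 and 0 lower, where 6.28% of all genes were called higher and 4.45% lower. Their median log2 change was 2.18, against 0.0484 over all genes tested. All 35 genes together gave 16 higher and 1 lower. The count depended on how the 4 nearly identical libraries of control day 14 were counted: as 1 sample, none of the 17 calls remained (adjusted p from 0.0655 to 0.745), although 10 genes were higher and 0 lower at an unadjusted p under 0.05. Without the 4 mixture-like libraries 6 higher and 0 lower calls were left, and with both changes 0, with 7 higher and 0 lower at an unadjusted p under 0.05. Leaving out control day 14 replicate 2 or 3 left 9 genes called higher, and leaving out control day 14 replicate 4 or control day 30 replicate 2 left 10. This comparison and that of the grafts of day 14 share the control day 14 libraries.

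**Figure D1:**
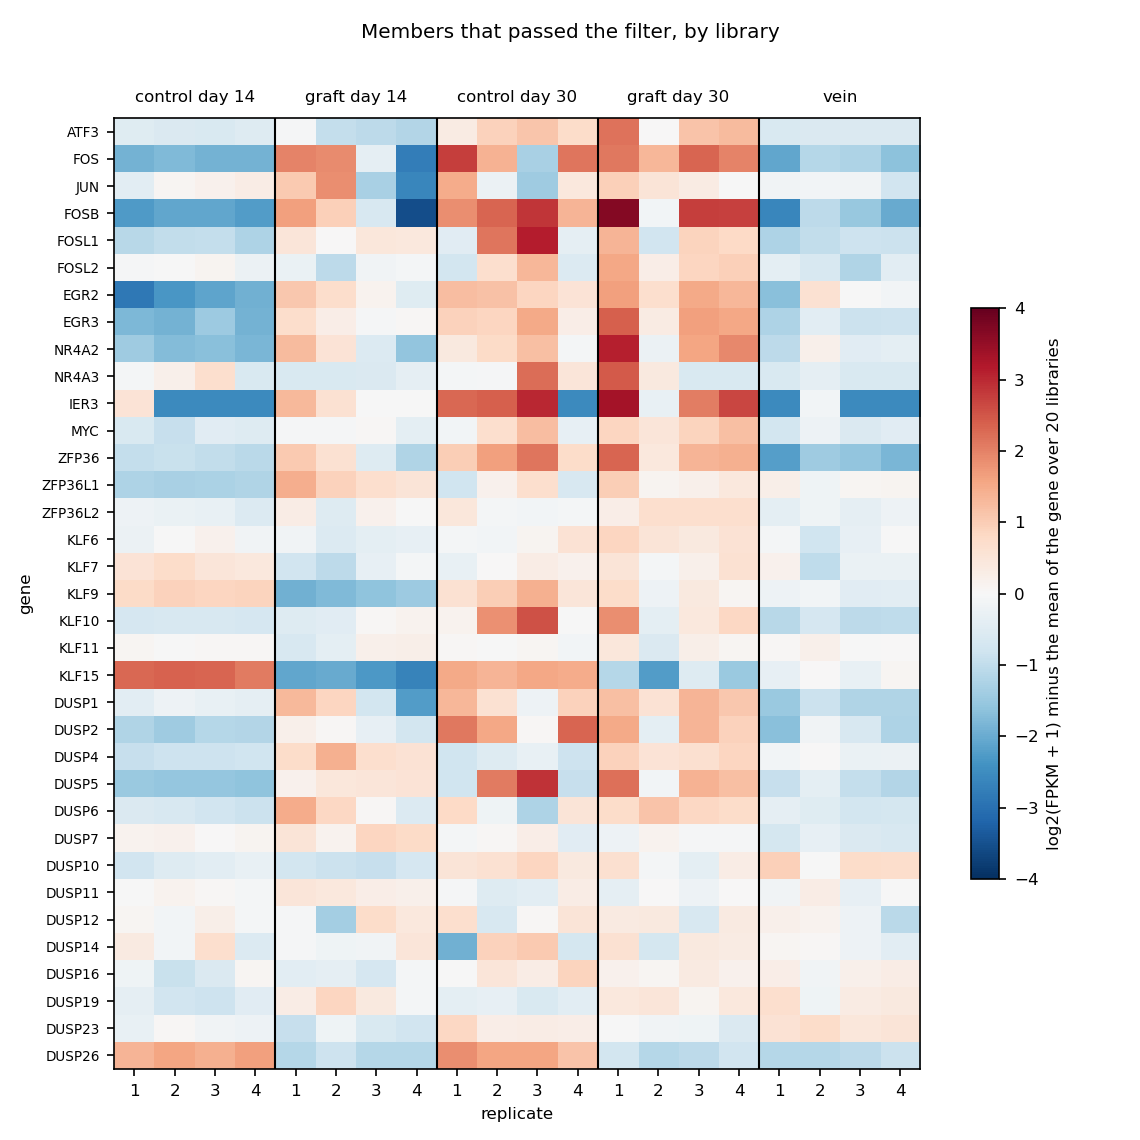
Each cell gives log2(FPKM + 1) of 1 gene in 1 library minus the mean of that gene over the 20 libraries, for the 35 genes tested, with replicates 1 to 4 of each group from left to right. KLF15 and DUSP26 are high in both control groups and low in both graft groups, and most immediate early genes are low in control day 14 and vein and high in control day 30 and graft day 30.

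Within the grafts, 12 of the 35 genes were called higher on day 30 than on day 14 and 1 lower, against 8.01% and 8.31% of all genes. The 12 were 7 immediate early genes (ATF3, FOSB, FOSL2, EGR3, MYC, ZFP36 and ZFP36L2), 4 KLF genes (KLF6, KLF7, KLF9 and KLF15) and DUSP10, and the lower gene was DUSP7. KLF9 was the 1 gene called in every alternative. With only the 2 graft groups fitted, or with weights per group, 3 genes were called higher. Without the 4 mixture-like libraries 3 higher calls and 0 lower were left (KLF9, KLF6 and ATF3), the others ending at adjusted p from 0.1 to 0.236, and with both changes 1 was left. Leaving out graft day 30 replicate 1 or 4 left 6 higher calls.

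The graft effect itself (graft minus control) was compared between the days, and 3 genes were called higher and 2 lower on day 30 than on day 14, where 5.38% and 7.57% of all genes were. The reduction of KLF9 and KLF15 was smaller on day 30, and so was the rise of EGR2 and ZFP36L1, while KLF7 was lower in the grafts of day 14 and not called on day 30. For EGR2 the graft mean went up from 9.14 to 17.3 FPKM between the days, and the control mean from 0.51 to 13.3 FPKM. For ZFP36L1 the graft mean went down from 145 to 104 FPKM, and the control mean up from 31.0 to 74.0 FPKM. KLF9 kept its call with control day 14 as 1 sample, while EGR2, KLF15, KLF7 and ZFP36L1 lost it (adjusted p from 0.124 to 0.209). With both changes all 5 calls ended (adjusted p from 0.274 to 0.578).

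Unoperated vein, set against the mean of both control artery groups, had 5 of the 35 genes higher and 9 lower, against 25.2% and 12% of all genes. All 4 called KLF genes (KLF7, KLF9, KLF10 and KLF15) were lower in vein, as were ZFP36, DUSP1, DUSP2, DUSP7 and DUSP26, and ZFP36L1, DUSP4, DUSP10, DUSP19 and DUSP23 were higher. Some of these calls rest on a mean of control groups that differed from each other. The vein mean of DUSP2 lay above that of control day 14 and below that of control day 30. For ZFP36L1, DUSP10 and DUSP23, vein overlapped with control day 30. With median-of-ratios scaling 2 were higher and 12 lower, and with quantile normalization 2 and 11. DUSP26, KLF15 and KLF9 held in all alternatives that could be fitted. With control day 14 as 1 sample, and likewise without the 4 mixture-like libraries, 2 were called higher and 5 lower, and with both changes 0 higher and 3 lower. The calls of DUSP1, DUSP10, DUSP2, DUSP23, KLF10, KLF7 and ZFP36L1 ended under each of the first 2 (adjusted p from 0.107 to 0.181 and from 0.0617 to 0.195), and those of ZFP36, DUSP4, DUSP7 and DUSP19 under both together (adjusted p = 0.0817, 0.142, 0.146 and 0.0867).

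**Figure D2:**
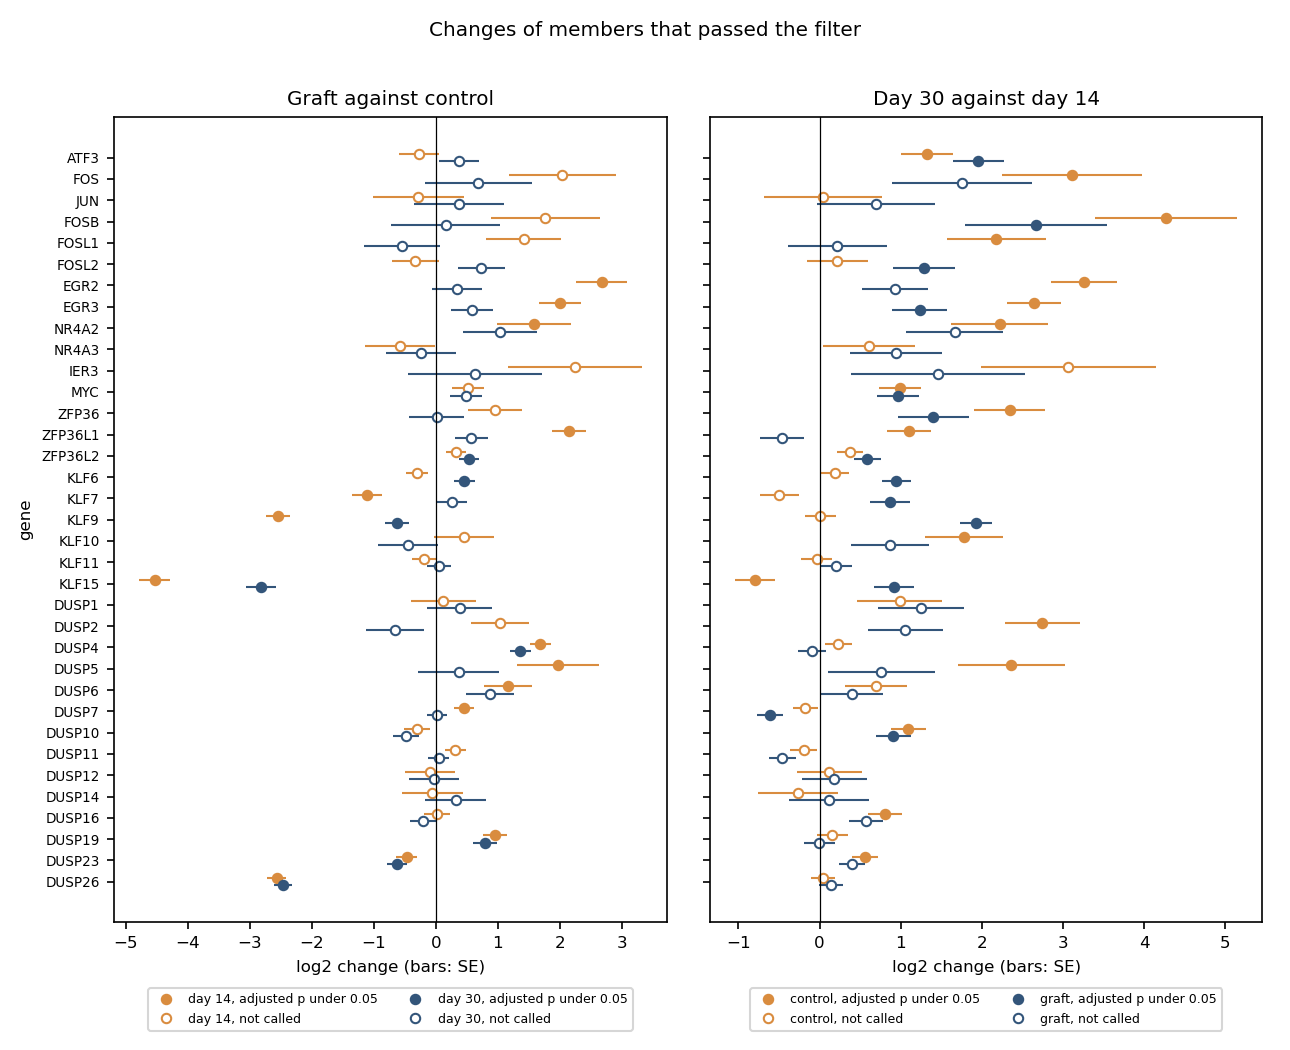
Log2 changes of the 35 genes tested, with bars for limma's standard error and filled points for an adjusted p under 0.05: graft against control on each day (left), and day 30 against day 14 in control arteries and in grafts (right). KLF15 and DUSP26 lie farthest to the left in the left panel, and FOSB in controls, at 4.27, lies farthest to the right in the right panel.

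FOS (ENSOCUG00000021506), which pairs with JUN to form AP-1, had the highest mean FPKM of the 6 AP-1 and ATF genes in all 5 groups. It stood at 49.4, 54.0, 49.8 and 49.7 FPKM in control day 14 (replicates 1 to 4, the order used throughout) and at 737, 688, 146 and 26.3 FPKM in graft day 14. On day 30 FOS stood at 1262, 491, 75.95 and 828 FPKM in controls. In graft day 30 it stood at 810.5, 468, 944 and 738 FPKM, and in vein at 42.9, 84.1, 79.04 and 59.3 FPKM. Graft day 14 spanned from below the lowest control into the range of graft day 30, and the highest library of all was an unoperated artery, control day 30 replicate 1. All 4 libraries of control day 30 lay above all 4 of control day 14, a log2 change of 3.11 (SE 0.86, adjusted p = 0.0272). The FOS call between control days ended without any 1 control day 14 library or control day 30 replicate 1, 2 or 4 (adjusted p from 0.0595 to 0.081). Grafts and controls overlapped on both days, with a log2 change of 2.04 (SE 0.86, adjusted p = 0.0557) on day 14 and of 0.69 (SE 0.86, adjusted p = 0.578) on day 30. Without graft day 14 replicate 4, the lowest graft, the day 14 change was 3.03 (adjusted p = 0.00189). Leaving out the lowest graft raises the change in any case, and FOS remained not called on day 14 with all libraries.

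FOSB, a FOS relative that accumulates with repeated stimulation, had the largest change of the 35 genes between the control groups on the log2(FPKM + 1) scale. It rose from 6.38 ± 0.502 FPKM (mean ± SD, n = 4) in control day 14 to 152 ± 67.4 FPKM in control day 30, where replicates 1 to 4 held 118, 164, 240.3 and 84.6 FPKM (4.27 log2 units, SE 0.88, adjusted p = 0.0042). In graft day 14 its values were 103, 62.5, 20.1 and 1.83 FPKM and in graft day 30 422, 29.7, 222 and 221 FPKM, so that grafts overlapped with controls on both days. The change was 1.77 (SE 0.88, adjusted p = 0.101) on day 14 and 0.16 (SE 0.88, adjusted p = 0.909) on day 30. Without graft day 14 replicate 4, the lowest graft for FOSB, the day 14 change was 2.82 (adjusted p = 0.00273). That omission raises the change in any case, and FOSB was not called on day 14 with all libraries. Between the graft days FOSB rose by 2.67 (SE 0.88, adjusted p = 0.0467), with overlap: graft day 30 replicate 2 lay below graft day 14 replicates 1 and 2. The FOSB call between graft days ended without any 1 control day 14 library, graft day 14 replicate 3 or 4, any 1 control day 30 library, graft day 30 replicate 1, 3 or 4 or any 1 vein library (adjusted p from 0.0506 to 0.148). The FOSB call between graft days also ended with a pseudocount of 0.1, no filter, median-of-ratios scaling, only the groups compared fitted, weights per group or replicate number as a block (adjusted p from 0.0528 to 0.242). Without graft day 14 replicate 4 the change was 1.62.

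The 2 other FOS relatives, like FOSB, were highest in replicates 3 and 2 of control day 30. FOSL1, an AP-1 subunit induced later than FOS, was close to 0 in control day 14 (0 to 0.2 FPKM) and stood at 0.7, 9.27, 19.5 and 0.83 FPKM in control day 30, high in replicates 2 and 3 alone. Its change between control days was 2.18 (SE 0.61, adjusted p = 0.0275). The FOSL1 call between control days ended without any 1 control day 14 library or control day 30 replicate 2 or 3 (adjusted p from 0.0566 to 0.0956). The FOSL1 call between control days also ended with no filter or only the groups compared fitted (adjusted p from 0.05033 to 0.117). In graft day 14 it stood between 1.38 and 2.30 FPKM, above all controls of that day, with a change of 1.42 (SE 0.61, adjusted p = 0.0588) that was not called. FOSL2 showed the same 2 libraries highest in control day 30 (5.08, 15.1, 24.5 and 6.04 FPKM), and its controls of the 2 days overlapped. In grafts FOSL2 rose from 7.11 ± 2.19 to 19.1 ± 7.37 FPKM (1.28 log2 units, SE 0.38, adjusted p = 0.0286), all 4 grafts of day 30 lying above those of day 14. The FOSL2 call between graft days ended without graft day 14 replicate 2 or graft day 30 replicate 1, 3 or 4 (adjusted p from 0.0506 to 0.0991). The FOSL2 call between graft days also ended with only the groups compared fitted or weights per group (adjusted p from 0.0634 to 0.0807).

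JUN, the AP-1 partner of FOS, was not called in any of the 6 comparisons. It stood at 17.1, 24.6, 26.2 and 28.7 FPKM in control day 14 and at 49.5, 86.5, 8.78 and 2.95 FPKM in graft day 14. Control day 30 held 67.5, 19.4, 8.14 and 31.8 FPKM of JUN, graft day 30 45.6, 33.3, 29.7 and 22.8 FPKM and vein 20.9, 21.6, 20.99 and 13.3 FPKM. The means lay between 19.2 FPKM (vein) and 36.9 FPKM (graft day 14), while graft day 14 alone spanned from 2.95 to 86.5 FPKM. ATF3, a stress-induced factor of the ATF family, stood between 39.2 and 42.6 FPKM in control day 14 and between 39.3 and 40.3 FPKM in vein, and at 76.2, 115, 131 and 100.4 FPKM in control day 30, without overlap. It rose between control days by 1.32 (SE 0.32, adjusted p = 0.0126), a call lost when the 4 mixture-like libraries were left out (adjusted p = 0.0835). Between graft days it rose from 57.8, 30.5, 28.5 and 25.8 FPKM to 275, 61.2, 133 and 144 FPKM (1.96 log2 units, SE 0.32, adjusted p = 0.000605), again without overlap. The ATF3 call between graft days ended with only the groups compared fitted (adjusted p = 0.0538). Graft against control gave -0.27 (SE 0.32, adjusted p = 0.501) on day 14 and 0.37 (SE 0.32, adjusted p = 0.402) on day 30.

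**Figure D3:**
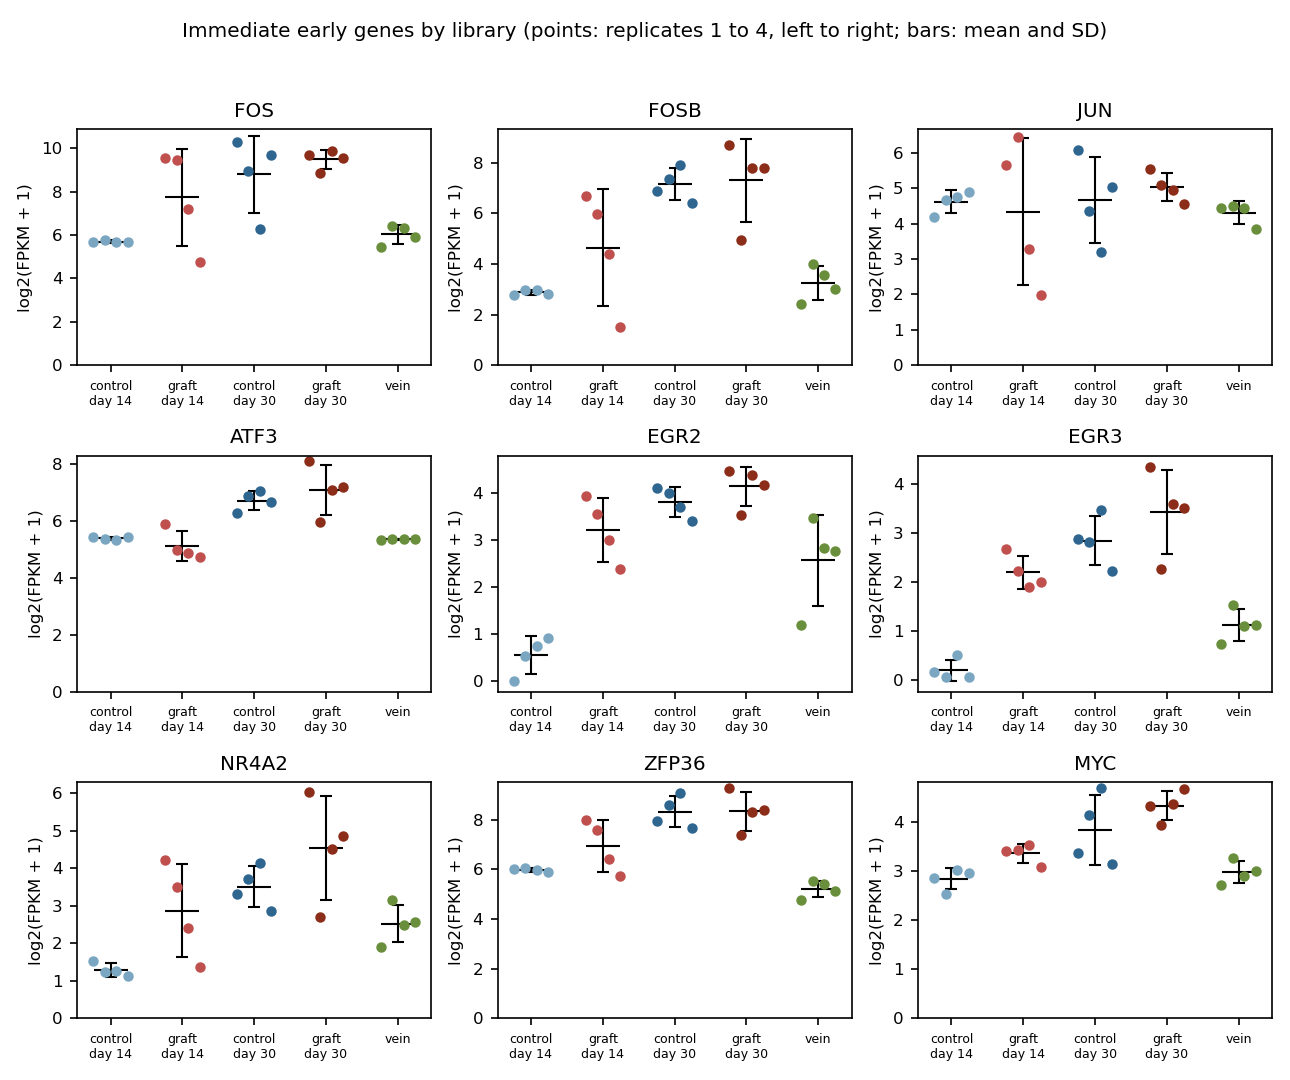
Log2(FPKM + 1) of 9 immediate early genes in each library, points in the order of replicates 1 to 4, with bars for the mean and SD of each group. Control day 14 libraries lie close together for FOS, FOSB, ATF3 and ZFP36, whereas replicates 1 and 2 of graft day 14 lie above replicates 3 and 4 for FOS, FOSB, JUN and NR4A2.

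EGR2 and EGR3, zinc finger factors of the early growth response family, were low in control day 14 and higher in all other artery groups. EGR2 (ENSOCUG00000013672) stood at 0, 0.45, 0.69 and 0.9 FPKM in control day 14 and at 14.4, 10.8, 7.10 and 4.21 FPKM in graft day 14. On day 30 EGR2 stood at 16.3, 15.2, 12.1 and 9.60 FPKM in controls and 21.4, 10.7, 19.9 and 17.2 FPKM in grafts. Vein, at 1.29, 10.2, 6.18 and 5.80 FPKM, lay above control day 14 as well. The grafts of day 14 lay above all controls of that day (2.67 log2 units, SE 0.41, adjusted p = 2.35e-05), as did control day 30 (3.26 log2 units, SE 0.41, adjusted p = 6.64e-05). Graft and control overlapped on day 30, at 0.34 (SE 0.41, adjusted p = 0.555), and the graft effect was smaller by 2.33 there (-2.33 log2 units, SE 0.57, adjusted p = 0.0125). With a pseudocount of 0.1 the changes were 4.20 for grafts of day 14, 4.85 between control days and -3.84 for the difference of graft effects.

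EGR3 repeated this order at lower levels. Control day 14 held 0.04 to 0.43 FPKM, graft day 14 5.33, 3.68, 2.72 and 3.01 FPKM, control day 30 6.31, 6.01, 10.01 and 3.67 FPKM and graft day 30 19.4, 3.83, 11.03 and 10.3 FPKM. It rose by 2.00 in grafts of day 14 (SE 0.34, adjusted p = 7.67e-05) and by 2.64 between control days (SE 0.34, adjusted p = 9.21e-05), both without overlap, and by 4.07 and 4.83 with a pseudocount of 0.1. On day 30 the graft change was 0.59 (SE 0.34, adjusted p = 0.191). Between graft days it rose with overlap, by 1.23 (SE 0.34, adjusted p = 0.0196). The EGR3 call between graft days ended without graft day 14 replicate 3 or graft day 30 replicate 1 (adjusted p from 0.0588 to 0.0752). The EGR3 call between graft days also ended with a pseudocount of 0.1, only the groups compared fitted or weights per group (adjusted p from 0.0621 to 0.133).

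NR4A2, an orphan nuclear receptor of the early response, stood at 1.90, 1.34, 1.41 and 1.17 FPKM in control day 14 and at 17.6, 10.3, 4.27 and 1.59 FPKM in graft day 14. The later samples held 9.01, 12.03, 16.6 and 6.24 FPKM (control day 30) and 65.1, 5.51, 22.03 and 28.3 FPKM (graft day 30) of NR4A2. Vein held 2.77, 7.85, 4.65 and 4.89 FPKM. All control day 30 libraries lay above control day 14 (2.22 log2 units, SE 0.60, adjusted p = 0.0228). The NR4A2 call between control days ended without control day 14 replicate 2, 3 or 4 or control day 30 replicate 2 or 3 (adjusted p from 0.0527 to 0.0647). Graft day 14 replicate 4 lay within the control range, and the graft change on day 14 was 1.58 (SE 0.60, adjusted p = 0.0325). The NR4A2 call on day 14 ended without control day 14 replicate 2, 3 or 4 or graft day 14 replicate 1 or 2 (adjusted p from 0.0583 to 0.122). The NR4A2 call on day 14 also ended with no filter, median-of-ratios scaling, TPM scaling or quantile normalization (adjusted p from 0.05013 to 0.105). NR4A3, its relative, was not called in any comparison; its highest values, 6.30 and 7.46 FPKM, fell in control day 30 replicate 3 and graft day 30 replicate 1.

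IER3, an early gene that guards against cell death, was listed at 0 in several libraries, so its values are given by library, with no group mean. It stood at 7.47, 0, 0 and 0 FPKM in control day 14 and at 13.2, 7.86, 4.80 and 4.76 FPKM in graft day 14. Control day 30 held 27.5, 29.5, 46.5 and 0 FPKM of IER3. Graft day 30 held 57.4, 3.71, 22.8 and 35.8 FPKM and vein 0, 4.43, 0 and 0 FPKM. No comparison called it. Fitted changes are not given, since 3 of 4 libraries of control day 14 and 1 of control day 30 were listed at 0. MYC, a factor that drives growth and division, was higher on day 30 than on day 14 in controls and in grafts. It stood at 6.25, 4.82, 7.16 and 6.82 FPKM in control day 14 and 9.35, 16.6, 25.03 and 7.90 FPKM in control day 30, and at 9.67, 9.80, 10.5 and 7.49 FPKM in graft day 14 and 19.1, 14.5, 19.7 and 24.6 FPKM in graft day 30. Neither pair overlapped: the changes were 0.99 (SE 0.26, adjusted p = 0.0189) in controls and 0.97 (SE 0.26, adjusted p = 0.0169) in grafts. The MYC call between control days ended without control day 14 replicate 2 or control day 30 replicate 2 or 3 (adjusted p from 0.0527 to 0.0658). The MYC call between control days also ended with only the groups compared fitted (adjusted p = 0.0937). The MYC call between graft days ended without graft day 14 replicate 4 or graft day 30 replicate 4 (adjusted p from 0.05012 to 0.0569). The MYC call between graft days also ended with weights per group (adjusted p = 0.0672). Graft against control gave 0.52 (SE 0.26, adjusted p = 0.103) on day 14 and 0.49 (SE 0.26, adjusted p = 0.152) on day 30.

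The ZFP36 family, zinc finger proteins that bind AU-rich sequences and lead mRNAs to decay, held abundant messages in all groups, and its 3 genes differed in which vessels were high. ZFP36 (tristetraprolin), the early gene of the family, stood at 63.7, 65.9, 61.8 and 58.2 FPKM in control day 14 and at 255, 191, 85.5 and 52.7 FPKM in graft day 14. Control day 30 held 246, 384, 546 and 206 FPKM of ZFP36. In graft day 30 it stood at 622, 165, 321 and 333 FPKM and in vein at 26.3, 45.2, 41.1 and 34.3 FPKM, the lowest group. It rose without overlap between control days (2.35 log2 units, SE 0.44, adjusted p = 0.00222) and was lower in vein than in control arteries (-1.95 log2 units, SE 0.38, adjusted p = 0.000564), every vein library lying below every control artery. The rise between graft days, 1.40 (SE 0.44, adjusted p = 0.0381), came with overlap. The ZFP36 call between graft days ended without graft day 14 replicate 3 or 4 or graft day 30 replicate 1, 3 or 4 (adjusted p from 0.068 to 0.134). The ZFP36 call between graft days also ended with no filter, only the groups compared fitted or weights per group (adjusted p from 0.0617 to 0.193). Graft against control was not called for ZFP36 on either day, at 0.96 (SE 0.44, adjusted p = 0.076) and 0.01 (SE 0.44, adjusted p = 0.987).

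ZFP36L1 (ENSOCUG00000003168) was the member of the family that was higher in the grafts of day 14. It stood at 31.4, 30.1, 30.9 and 31.7 FPKM in control day 14 and 207, 144, 121 and 108 FPKM in graft day 14. On day 30 ZFP36L1 stood at 43.2, 85.2, 120.2 and 47.6 FPKM in controls and 148, 80.8, 86.9 and 101 FPKM in grafts, and vein held 87.4, 66.05, 78.6 and 81.5 FPKM. The grafts of day 14 lay well above the controls (2.14 log2 units, SE 0.27, adjusted p = 3.12e-06), whereas the groups overlapped on day 30 (0.57 log2 units, SE 0.27, adjusted p = 0.111), and the effects differed by -1.57 (SE 0.38, adjusted p = 0.0123). Control day 30 lay above control day 14 (1.10 log2 units, SE 0.27, adjusted p = 0.0137). The ZFP36L1 call between control days ended with only the groups compared fitted (adjusted p = 0.0548). Vein lay above the mean of the control arteries (0.75 log2 units, SE 0.24, adjusted p = 0.0179), a call that ended without vein replicate 1 (adjusted p = 0.0549). The ZFP36L1 call in vein also ended with median-of-ratios scaling (adjusted p = 0.0792). On day 14 ZFP36L2 stood at 41.8 ± 4.12 FPKM in controls and 53.4 ± 12.3 FPKM in grafts, and on day 30 at 55.03 ± 11.8 and 79.7 ± 10.4 FPKM. It was called higher in grafts than in controls of day 30 (0.54 log2 units, SE 0.16, adjusted p = 0.0139), where graft replicate 1, at 64.1 FPKM, lay below control replicate 1, at 72.8 FPKM. The ZFP36L2 call on day 30 ended with median-of-ratios scaling or TPM scaling (adjusted p from 0.088 to 0.419). Between graft days it rose by 0.59 (SE 0.16, adjusted p = 0.0198). The ZFP36L2 call between graft days ended without graft day 14 replicate 2 or graft day 30 replicate 4 (adjusted p from 0.05003 to 0.0545). The ZFP36L2 call between graft days also ended with only the groups compared fitted or weights per group (adjusted p from 0.0547 to 0.126).

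KLF15 (ENSOCUG00000012493) had the largest graft change of the 35 genes on the log2(FPKM + 1) scale, also with a pseudocount of 0.1 on day 14 (-5.57), though not on day 30 (-3.29, against -4.58 for DUSP26). It stood at 40.98, 43.3, 42.5 and 35.3 FPKM in control day 14 and 1.04, 1.11, 0.76 and 0.35 FPKM in graft day 14. On day 30 KLF15 stood at 23.6, 21.2, 23.9 and 22.9 FPKM in controls and 2.86, 0.82, 5.01 and 2.10 FPKM in grafts. Vein stood between these at 5.81, 7.66, 6.03 and 8.03 FPKM. No graft library of either day came near a control library, and the changes were -4.53 (SE 0.25, adjusted p = 1.27e-10) on day 14 and -2.82 (SE 0.25, adjusted p = 1.05e-07) on day 30. The graft effect was smaller on day 30 by 1.72 on the log2 scale (SE 0.35, adjusted p = 0.00388), the grafts being higher and the controls lower than on day 14. Control day 30 lay below control day 14 without overlap, by -0.80 (SE 0.25, adjusted p = 0.0474) on the log2 scale. The KLF15 call between control days ended without any 1 control day 14 library, graft day 14 replicate 1 or 3, any 1 control day 30 library, graft day 30 replicate 1 or 4 or any 1 vein library (adjusted p from 0.0517 to 0.11). The KLF15 call between control days also ended with a pseudocount of 0.1, no filter, TPM scaling, quantile normalization or replicate number as a block (adjusted p from 0.0507 to 0.18). The higher graft level of day 30, 0.92 (SE 0.25, adjusted p = 0.0176), came with overlap, graft day 30 replicate 2 lying within the range of day 14. The KLF15 call between graft days ended without graft day 14 replicate 4 or graft day 30 replicate 1 (adjusted p from 0.0543 to 0.0581). The KLF15 call between graft days also ended with quantile normalization, only the groups compared fitted or weights per group (adjusted p from 0.0602 to 0.175). With a pseudocount of 0.1 the change was 1.46. Vein was lower than the control arteries, at -2.01 (SE 0.21, adjusted p = 9.14e-07).

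KLF9 (ENSOCUG00000006343) was low in the grafts of day 14 and nearer to its control level in those of day 30. It stood at 39.97, 44.3, 42.4 and 43.8 FPKM in control day 14 and 5.38, 6.08, 6.89 and 7.82 FPKM in graft day 14. On day 30 KLF9 stood at 35.7, 46.8, 62.8 and 32.3 FPKM in controls and 38.7, 19.7, 30.1 and 24.5 FPKM in grafts. The change on day 14 was -2.54 (SE 0.20, adjusted p = 8.48e-09), without overlap. On day 30 it was -0.63 (SE 0.20, adjusted p = 0.0169), graft replicate 1 overlapping with controls. The KLF9 call on day 30 ended without control day 30 replicate 3 or graft day 30 replicate 2 (adjusted p from 0.0677 to 0.07). The KLF9 call on day 30 also ended with only the groups compared fitted (adjusted p = 0.101). The graft effect differed between days by 1.91 (SE 0.28, adjusted p = 0.000343), and graft day 30 lay above graft day 14 in all libraries (1.93 log2 units, SE 0.20, adjusted p = 5.85e-06). Vein held 19.7, 21.1, 16.5 and 16.8 FPKM, below every control artery (-1.17 log2 units, SE 0.17, adjusted p = 2.96e-05).

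KLF10, a factor induced by TGF-beta, was not called between grafts and controls on either day at 0.46 (SE 0.48, adjusted p = 0.447) and -0.45 (SE 0.48, adjusted p = 0.506). It stood between 15.7 and 16.2 FPKM in control day 14 and at 28.1, 93.9, 155 and 25.3 FPKM in control day 30, where replicates 2 and 3 were high as for FOSL1. The change between control days was 1.78 (SE 0.48, adjusted p = 0.0238). The KLF10 call between control days ended without any 1 control day 14 library or control day 30 replicate 2 or 3 (adjusted p from 0.053 to 0.0828). The KLF10 call between control days also ended with only the groups compared fitted (adjusted p = 0.0792). Vein, between 11.3 and 15.6 FPKM, was lower than control arteries (-1.20 log2 units, SE 0.42, adjusted p = 0.0312). The KLF10 call in vein ended without control day 30 replicate 2 or vein replicate 1, 3 or 4 (adjusted p from 0.0575 to 0.0746). The KLF10 call in vein also ended with no filter (adjusted p = 0.0515). KLF7, a factor known mainly from neurons and fat cells, fell from 6.86 ± 0.783 to 2.76 ± 1.13 FPKM in grafts of day 14 (-1.11 log2 units, SE 0.24, adjusted p = 0.000834), without overlap, and stood at 4.62 ± 0.925 FPKM in control day 30 and 5.76 ± 1.46 FPKM in graft day 30 (0.26 log2 units, SE 0.24, adjusted p = 0.447). The difference of its graft effects was 1.36 (SE 0.34, adjusted p = 0.0139). The KLF7 call on the difference ended with TPM scaling (adjusted p = 0.0802). Its rise between graft days was 0.87 (SE 0.24, adjusted p = 0.0209). The KLF7 call between graft days ended without graft day 14 replicate 2 or graft day 30 replicate 1 or 4 (adjusted p from 0.0573 to 0.067). The KLF7 call between graft days also ended with only the groups compared fitted or weights per group (adjusted p from 0.0752 to 0.105). Its lower level in vein was -0.64 (SE 0.21, adjusted p = 0.022), or -0.42 without vein replicate 2. The KLF7 call in vein ended without vein replicate 2 (adjusted p = 0.122). The KLF7 call in vein also ended with TPM scaling (adjusted p = 0.0552).

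KLF6, an injury-induced factor, stood at 11.8, 8.75, 9.87 and 10.2 FPKM in graft day 14 and rose to 24.9, 19.3, 17.7 and 20.4 FPKM in graft day 30, without overlap (0.95 log2 units, SE 0.18, adjusted p = 0.00165). This call ended in 1 of 34 alternatives, that with control day 14 as 1 sample and no mixture-like libraries (adjusted p = 0.0929). Against control day 30, at 12.5, 12.1, 14.5 and 20.3 FPKM, the graft was higher by 0.46 (SE 0.18, adjusted p = 0.047), with overlap. The KLF6 call on day 30 ended without control day 14 replicate 1, 2 or 4, graft day 14 replicate 3 or 4, control day 30 replicate 1, 2 or 3, graft day 30 replicate 1, 2 or 4 or vein replicate 3 (adjusted p from 0.0528 to 0.138). The KLF6 call on day 30 also ended with a pseudocount of 0.1, no filter, median-of-ratios scaling, TPM scaling, quantile normalization, only the groups compared fitted or weights per group (adjusted p from 0.0518 to 0.542). KLF11, a TGF-beta-inducible relative of KLF10, stood at means between 5.79 and 6.80 FPKM and was not called in any comparison. KLF4, which lowers smooth muscle contractile genes, has no symbol in the deposited table and was recognised only through its NCBI gene number in the RefSeq gene table (assembly mOryCun1.1), so it is not among the 50. It stood at 8.78, 9.89, 9.36 and 9.61 FPKM in control day 14 and at 82.7, 37.6, 20.6 and 10.4 FPKM in graft day 14. The later samples held 65.2, 54.8, 56.7 and 38.4 FPKM (control day 30) and 197, 52.2, 120.5 and 120.3 FPKM (graft day 30) of KLF4. No graft or control of another group overlapped with control day 14, and KLF4 was called higher in graft day 14 (1.52 log2 units, SE 0.45, adjusted p = 0.00866), in control day 30 against control day 14 (2.37 log2 units, SE 0.45, adjusted p = 0.00258) and in graft day 30 against graft day 14 (1.90 log2 units, SE 0.45, adjusted p = 0.00852), each call ending in 2 or 3 of the 34 alternatives.

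**Figure D4:**
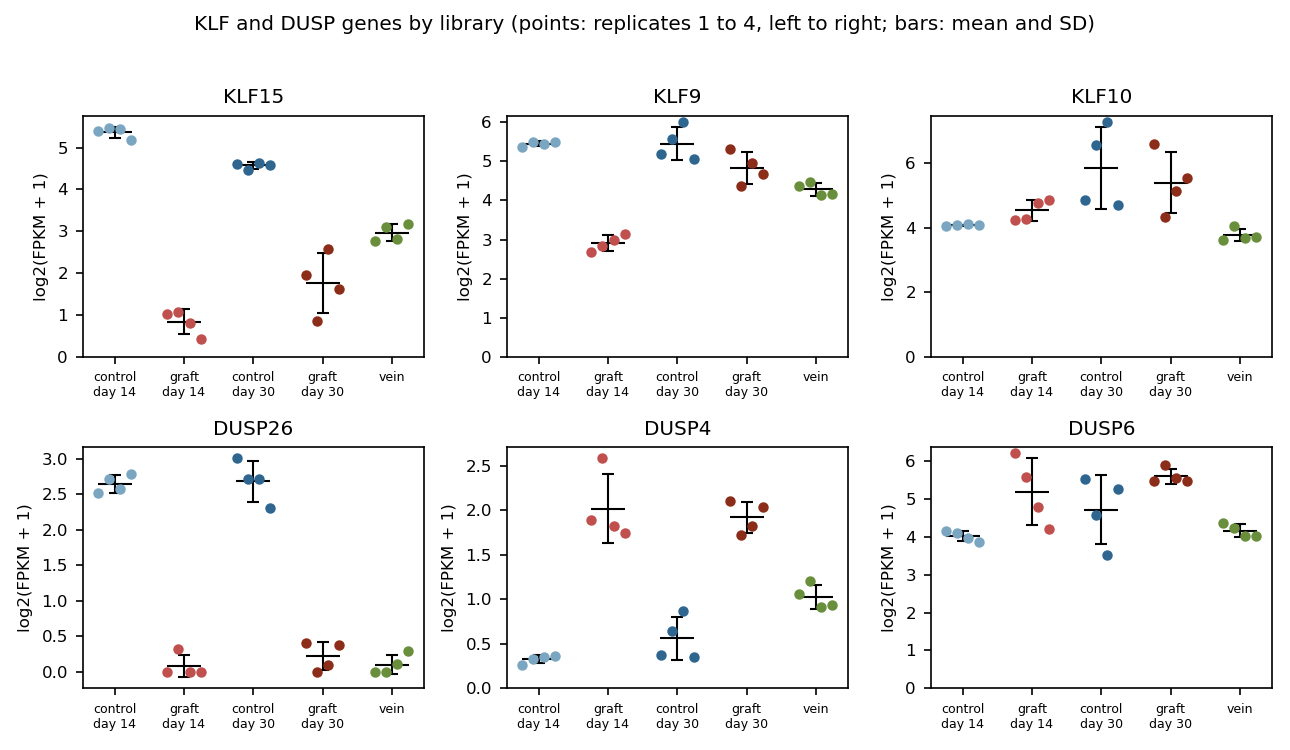
Log2(FPKM + 1) of 3 KLF and 3 DUSP genes in each library, points in the order of replicates 1 to 4, with bars for the mean and SD of each group. KLF15 and DUSP26 separate all grafts from all controls on both days, DUSP4 does so in the opposite direction, and KLF9 of graft day 30 reaches back into the range of control day 30.

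DUSP26 (ENSOCUG00000024073), a phosphatase known from muscle, brain and neuroendocrine tissue, was present in unoperated arteries and nearly absent from grafts and vein. It stood at 4.72, 5.58, 4.94 and 5.89 FPKM in control day 14 and at 0, 0.25, 0 and 0 FPKM in graft day 14. The later samples held 7.03, 5.58, 5.59 and 3.93 FPKM (control day 30) and 0.32, 0, 0.07 and 0.3 FPKM (graft day 30) of DUSP26. Vein held 0, 0, 0.08 and 0.22 FPKM. The groups did not overlap, and the changes were -2.57 (SE 0.15, adjusted p = 2.96e-10) on day 14, -2.47 (SE 0.15, adjusted p = 1.44e-09) on day 30 and -2.57 (SE 0.13, adjusted p = 7.3e-11) in vein against control arteries. With a pseudocount of 0.1 they were -5.29, -4.58 and -5.13. Skeletal muscle markers (8 of 10 found, TNNC2 and MYLPF at 0 in all libraries) summed to between 560.4 and 621 FPKM in control day 14. Their sum lay between 469.9 and 594 FPKM in control day 30. In the grafts of both days and in vein it lay between 7.13 and 79.2 FPKM. Most of the control day 14 sum was TCAP (379 to 426 FPKM) and TNNC1 (158 to 188 FPKM). With CKM these were the 3 markers that could be tested. The other markers found did not reach 1 FPKM in 4 libraries, so the sum does not speak for skeletal muscle markers as a whole. CKM stood between 10.5 and 11.8 FPKM in control day 14 and at 6.35, 8.74, 2.42 and 0.27 FPKM in graft day 14. Smooth muscle markers, given above, were also highest in the control arteries. The part of either in the result was not tested.

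DUSP4 (ENSOCUG00000003720), a nuclear phosphatase of ERK and JNK, and DUSP19 were the DUSP genes called higher in grafts on both days. DUSP4 stood between 0.2 and 0.29 FPKM in control day 14 and between 0.28 and 0.83 FPKM in control day 30, and at 2.72, 5.02, 2.55 and 2.36 FPKM in graft day 14 and 3.29, 2.30, 2.54 and 3.09 FPKM in graft day 30. The groups did not overlap, and the changes were 1.69 (SE 0.17, adjusted p = 2.21e-07) on day 14 and 1.36 (SE 0.17, adjusted p = 6.22e-06) on day 30, or 3.13 and 2.38 with a pseudocount of 0.1. Vein, at 1.09, 1.30, 0.88 and 0.92 FPKM, lay above all control arteries (0.58 log2 units, SE 0.15, adjusted p = 0.00457). The DUSP4 call in vein ended with quantile normalization (adjusted p = 0.0846). With a pseudocount of 0.1 the vein change was 1.36. DUSP19, a phosphatase that also binds kinases of the JNK cascade, rose likewise on both days, from 1.57 ± 0.404 to 4.10 ± 1.42 FPKM (0.96 log2 units, SE 0.19, adjusted p = 0.000413) and from 1.85 ± 0.224 to 3.97 ± 0.563 FPKM (0.80 log2 units, SE 0.19, adjusted p = 0.00315), without overlap. With quantile normalization these were 0.63 and 0.48, and the second call ended (adjusted p = 0.0719). Vein held 3.87 ± 1.10 FPKM of DUSP19, higher than the control arteries without overlap (0.82 log2 units, SE 0.17, adjusted p = 0.000798).

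DUSP6 and DUSP5, phosphatases with a preference for ERK, were called higher in the grafts of day 14. DUSP6 stood at 16.8, 16.1, 14.7 and 13.6 FPKM in control day 14 and 73.4, 46.5, 26.4 and 17.4 FPKM in graft day 14. On day 30 DUSP6 stood at 45.4, 22.7, 10.4 and 37.2 FPKM in controls and 43.2, 57.97, 46.1 and 43.04 FPKM in grafts. The day 14 change, 1.17 (SE 0.38, adjusted p = 0.0161), came without overlap, graft replicate 4 lying just above the controls. The DUSP6 call on day 14 ended without graft day 14 replicate 1 (adjusted p = 0.0687). The DUSP6 call on day 14 also ended with median-of-ratios scaling or quantile normalization (adjusted p from 0.0725 to 0.0733). With weights for each library the change was 0.74. On day 30 the graft change of DUSP6 was 0.87 (SE 0.38, adjusted p = 0.0858). DUSP5 was close to 0 in control day 14 (0.05 to 0.15 FPKM) and stood between 2.60 and 3.71 FPKM in graft day 14 (1.97 log2 units, SE 0.66, adjusted p = 0.0173, or 4.14 with a pseudocount of 0.1). In control day 30 it was high in replicates 2 and 3 alone, at 0.85, 12.6, 22.9 and 0.68 FPKM, the same libraries as for FOSL1 and KLF10. The change between control days, 2.37 (SE 0.66, adjusted p = 0.0271), was 4.32 with a pseudocount of 0.1. The DUSP5 call between control days ended without any 1 control day 14 library or control day 30 replicate 2 or 3 (adjusted p from 0.0587 to 0.0967). The DUSP5 call between control days also ended with only the groups compared fitted (adjusted p = 0.118).

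DUSP1 and DUSP2, nuclear phosphatases that are themselves early genes, were lowest in replicate 3 among the 4 libraries of control day 30, as was FOS. DUSP1 stood at 83.2, 95.01, 89.5 and 86.4 FPKM in control day 14 and at 275, 203, 65.4 and 22.9 FPKM in graft day 14. The later samples held 280.1, 169.9, 96.2 and 209.6 FPKM (control day 30) and 254, 165, 285 and 233 FPKM (graft day 30) of DUSP1. The control days did not overlap, but the change of 0.99 (SE 0.53, adjusted p = 0.267) was not called, and graft against control gave 0.12 (SE 0.53, adjusted p = 0.867) and 0.38 (SE 0.53, adjusted p = 0.615). In vein DUSP1 stood at 38.5, 60.7, 47.01 and 47.3 FPKM, below every control artery (-1.37 log2 units, SE 0.46, adjusted p = 0.0257). The DUSP1 call in vein ended without vein replicate 1, 3 or 4 (adjusted p from 0.0566 to 0.0725). DUSP2 stood between 0.39 and 0.67 FPKM in control day 14 and at 15.1, 9.78, 2.83 and 17.4 FPKM in control day 30 (2.74 log2 units, SE 0.46, adjusted p = 0.00101), and at 3.21, 2.82, 1.92 and 1.24 FPKM in graft day 14, not called (1.03 log2 units, SE 0.46, adjusted p = 0.0712). Vein held 0.16, 2.33, 1.35 and 0.56 FPKM of DUSP2, overlapping with the controls. Against the mean of both control groups its level in vein was lower (-1.07 log2 units, SE 0.40, adjusted p = 0.0457). The vein mean, 1.1 FPKM, lay above that of control day 14 (0.57 FPKM) and below that of control day 30 (11.3 FPKM). The DUSP2 call in vein ended without any 1 control day 14 library, graft day 14 replicate 3, control day 30 replicate 1, 2 or 4, graft day 30 replicate 4 or vein replicate 1, 3 or 4 (adjusted p from 0.0531 to 0.167). The DUSP2 call in vein also ended with no filter, only the groups compared fitted or replicate number as a block (adjusted p from 0.0507 to 0.075).

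DUSP10, a phosphatase of p38 and JNK, stood at 0.98, 1.36, 1.53 and 1.76 FPKM in control day 14 and 3.84, 4.13, 5.14 and 3.41 FPKM in control day 30, and at 1.02, 0.85, 0.78 and 1.12 FPKM in graft day 14 and 4.21, 2.21, 1.55 and 3.12 FPKM in graft day 30. It was higher on day 30 without overlap in controls (1.09 log2 units, SE 0.21, adjusted p = 0.00315) and in grafts (0.91 log2 units, SE 0.21, adjusted p = 0.00822, or 1.38 with a pseudocount of 0.1). The DUSP10 call between graft days ended with only the groups compared fitted or weights per group (adjusted p from 0.0539 to 0.0689) and without the 4 mixture-like libraries (adjusted p = 0.112). Vein held 5.53, 2.35, 4.65 and 4.48 FPKM of DUSP10, overlapping with control day 30. Against the mean of both control groups its level in vein was higher by 0.55 (SE 0.19, adjusted p = 0.0276). The DUSP10 call in vein ended without control day 14 replicate 1 or vein replicate 1, 3 or 4 (adjusted p from 0.0516 to 0.115). The DUSP10 call in vein also ended with median-of-ratios scaling, TPM scaling or quantile normalization (adjusted p from 0.0525 to 0.0977). DUSP23, a small atypical phosphatase, was lower in grafts on both days, 14.1 ± 3.61 against 19.5 ± 1.97 FPKM on day 14 (-0.47 log2 units, SE 0.16, adjusted p = 0.0203) and 18.6 ± 3.09 against 29.6 ± 6.24 FPKM on day 30 (-0.63 log2 units, SE 0.16, adjusted p = 0.00482). The groups overlapped on day 14 and did not on day 30. The DUSP23 call on day 14 ended without control day 14 replicate 2 or graft day 14 replicate 1 or 4 (adjusted p from 0.0544 to 0.0748), and the change was -0.76 with median-of-ratios scaling. Its rise between control days was 0.56 (SE 0.16, adjusted p = 0.0341). The DUSP23 call between control days ended without control day 14 replicate 1, 3 or 4 or control day 30 replicate 1 (adjusted p from 0.0733 to 0.105). The DUSP23 call between control days also ended with no filter, median-of-ratios scaling or quantile normalization (adjusted p from 0.0539 to 0.0644). Vein held between 29.9 and 36.3 FPKM of DUSP23, overlapping with control day 30. Against the mean of both control groups its level in vein was higher by 0.43 (SE 0.14, adjusted p = 0.0221), or by 0.26 with median-of-ratios scaling. The DUSP23 call in vein ended without vein replicate 1 or 2 (adjusted p from 0.0517 to 0.0753). The DUSP23 call in vein also ended with median-of-ratios scaling or quantile normalization (adjusted p from 0.0513 to 0.183).

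DUSP7, an ERK phosphatase of the cytoplasm, was higher in graft day 14, at 20.1, 15.2, 25.97 and 24.5 FPKM, than in control day 14, at 15.5, 15.7, 13.9 and 15.1 FPKM, with overlap (0.46 log2 units, SE 0.16, adjusted p = 0.0211). The DUSP7 call on day 14 ended without control day 14 replicate 3 or graft day 14 replicate 3 or 4 (adjusted p from 0.0552 to 0.0794). The DUSP7 call on day 14 also ended with median-of-ratios scaling, TPM scaling or quantile normalization (adjusted p from 0.271 to 0.481). Its change ranged from 0.17 with median-of-ratios scaling to 0.73 with weights for each library. It was lower in graft day 30, at 11.8, 15.5, 13.2 and 13.4 FPKM, than in graft day 14 (-0.61 log2 units, SE 0.16, adjusted p = 0.0147). The DUSP7 call between graft days ended without graft day 14 replicate 3 or graft day 30 replicate 1 (adjusted p from 0.05009 to 0.0549). The DUSP7 call between graft days also ended with TPM scaling or only the groups compared fitted (adjusted p from 0.1 to 0.338). It was also lower in vein, at 9.06 ± 1.14 FPKM (-0.59 log2 units, SE 0.14, adjusted p = 0.00233). DUSP16, a JNK phosphatase, rose between control days from 4.82 ± 1.68 to 9.09 ± 2.63 FPKM with overlap (0.81 log2 units, SE 0.21, adjusted p = 0.0171). The DUSP16 call between control days ended without control day 14 replicate 2 or 3 or control day 30 replicate 4 (adjusted p from 0.052 to 0.0664). The DUSP16 call between control days also ended with only the groups compared fitted (adjusted p = 0.0818). DUSP11, DUSP12 and DUSP14 were not called in any comparison, with group means between 1.29 and 7.70 FPKM. DUSP3, a small phosphatase of ERK and JNK, is outside the 50 for the same reason as KLF4. It was lower in grafts on both days without overlap, 9.84 ± 1.66 against 42.5 ± 2.71 FPKM (-2.02 log2 units, SE 0.19, adjusted p = 7.39e-08) and 15.9 ± 4.29 against 32.6 ± 4.70 FPKM (-1.03 log2 units, SE 0.19, adjusted p = 0.000267).

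Within each group but control day 14, the immediate early genes tended to be high or low in the same libraries. In control day 14 replicates 1 to 4 were the highest for 4, 3, 5 and 3 of the 15 genes and the lowest for 4, 4, 1 and 6. In graft day 14 replicate 1 was the highest for 11 of the 15 (73.3%, against 20.4% of all genes tested) and replicate 4 the lowest for 10 (66.7% against 21.7%). In graft day 30 replicate 1 was the highest for 12 (80%, against 23% of all genes) and replicate 2 the lowest for 12 (80% against 20.8%). In vein replicate 2 was the highest for 11 (73.3% against 29.5%) and replicate 1 the lowest for 12 (80% against 25%). In all these counts and shares a tie went to the lowest replicate number. The 12 of vein include IER3 and NR4A3, listed at 0 in replicates 1, 3 and 4 alike. IER3 and EGR3 were tied for lowest in control day 14, and NR4A3 in graft day 14. The 15 genes had a median SD of log2(FPKM + 1) of 0.515 among the grafts of day 14 and 0.779 among those of day 30, where all genes had 0.33 and 0.254. Among the controls of day 30 it was 0.691 against 0.257, and among veins 0.323 against 0.217. In control day 14 both medians were 0.145. Along with the immediate early genes of graft day 14, the endothelial markers (13 of 14 found, none at 0 in all libraries) summed to 562, 631, 312 and 262 FPKM in replicates 1 to 4, and the macrophage markers (14 of 14 found, LAPTM5 at 0 in all libraries) to 509, 341, 755 and 827 FPKM. In graft day 14 the macrophage markers CD14, CD68, CTSS and MRC1 were highest in replicate 4. C1QC was highest in replicate 1, at 129, 67.2, 67.8 and 58.9 FPKM, so this sum does not show how all macrophage markers moved. Adipocyte markers (5 of 6 found, CIDEC at 0 in all libraries) summed to 244, 356.5, 791 and 906 FPKM there, and to between 41 and 42.6 FPKM in control day 14. FABP4 made up most of that sum in graft day 14, at 166, 266, 740 and 860 FPKM. ADIPOQ went the other way, at 77.9, 90.1, 50.3 and 46.6 FPKM, so the sum does not show how all adipocyte markers moved. Endothelial markers summed to between 82.5 and 86.9 FPKM in control day 14 and between 96.2 and 224 FPKM in control day 30, macrophage markers to between 21.2 and 25.2 and between 26.1 and 48.5 FPKM. Their part in the result was not tested.

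In control day 30 the genes fell into different orders. Replicate 3 was the highest for 11 of the 15 (73.3%, against 29.9% of all genes), among them FOSB, FOSL1, FOSL2, ATF3, EGR3, NR4A2, NR4A3, IER3, MYC, ZFP36 and ZFP36L1. The same library was the lowest for FOS and JUN, as it was for DUSP1, DUSP2 and DUSP6, and replicate 1 was the highest for FOS, JUN, EGR2, ZFP36L2, DUSP1 and DUSP6. The ratio of FOS to FOSB FPKM was 10.7, 2.99, 0.316 and 9.78 in replicates 1 to 4, while it lay between 7.37 and 8.44 in control day 14. Neutrophil markers (5 of 7 found, MMP8 at 0 in all libraries) summed to 11.8, 615, 1014 and 370.3 FPKM in control day 30 replicates 1 to 4, and to between 359 and 408 FPKM in control day 14. Adipocyte markers summed to 43.5, 213.5, 354 and 54.9 FPKM in the same replicates, high in replicates 2 and 3 as FOSL1, KLF10 and DUSP5 were. Endothelial markers summed to 128.5, 164, 224 and 96.2 FPKM, and macrophage markers to 29.3, 38.6, 48.5 and 26.1 FPKM. These 4 marker sums were highest in replicate 3, whereas Schwann cell markers (42.2, 60.3, 25.6 and 81.4 FPKM) were lowest there and fibroblast markers (3445, 2403, 2533 and 1721 FPKM) were highest in replicate 1. B and plasma cell markers (1.59, 9.23, 14.2 and 10.4 FPKM) and skeletal muscle markers (516, 491, 594 and 469.9 FPKM) were also highest in replicate 3. Smooth muscle markers (8160, 7815, 6750 and 9701 FPKM) were lowest in replicate 3, and T and natural killer cell markers (0.6, 2.6, 2.12 and 5.37 FPKM) highest in replicate 4. The part of these cell types in this order was not tested.

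**Figure D5:**
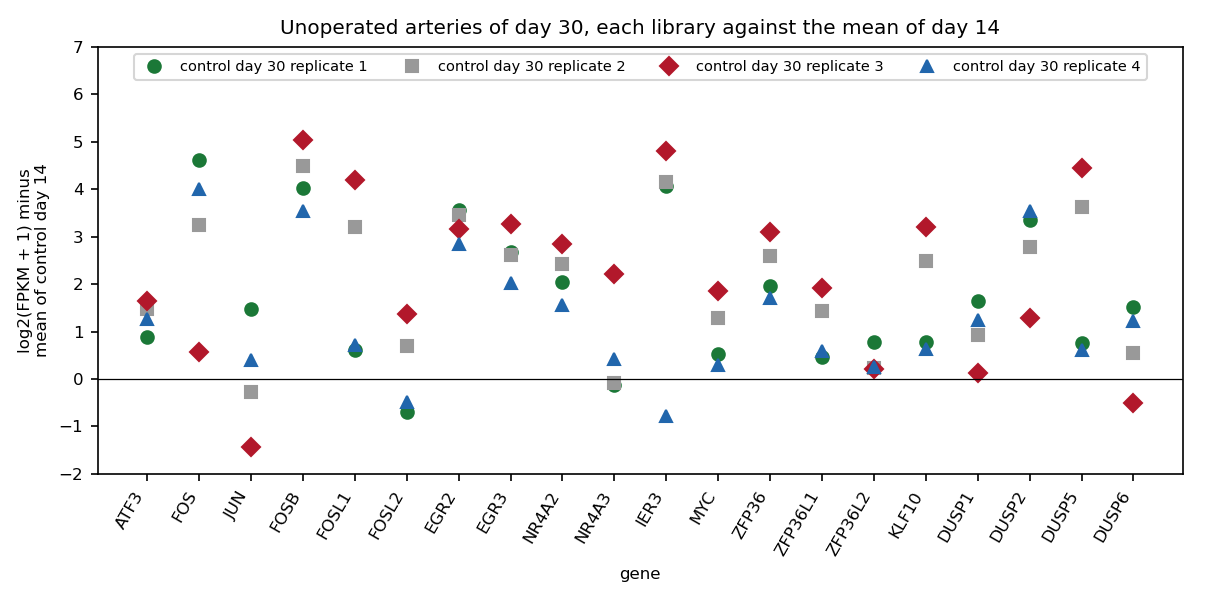
Log2(FPKM + 1) of 20 genes in each library of control day 30 minus the mean of control day 14, with 1 symbol per library. Replicate 3 lies highest for FOSB, FOSL1, KLF10 and DUSP5 and lowest for FOS, JUN, DUSP1, DUSP2 and DUSP6.

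Other early response genes (21 of 32 listed were tested) include further transcription factors, kinases and growth regulators induced by the same signals. For this and the following lists, calls come from the first fit alone. They were not examined under the alternatives, such as control day 14 as 1 sample. In control day 30 against control day 14, 6 of the 21 were higher and 0 lower, where 6.28% and 4.45% of all genes were, among them BTG2, an antiproliferative early gene, from 6.97 ± 0.544 to 164 ± 55.9 FPKM (log2 change 4.32, adjusted p = 4.27e-05), and SGK1, a kinase induced by serum and glucocorticoids (2.16, adjusted p = 4.91e-05). In graft day 14 against control, 3 of 21 were higher, a smaller share than the 36.5% of all genes, and 5 lower, against 17%. SGK1 rose from 2.69 ± 0.391 to 26.7 ± 5.14 FPKM (2.90, adjusted p = 5.73e-08), and MAFF, a small MAF factor, fell (-3.31, adjusted p = 6.65e-07). On day 30, 2 were higher and 1 lower, against 26% and 11.6% of all genes. Between graft days 5 were higher and 0 lower (all genes 8.01% and 8.31%), and in vein 2 were higher and 11 lower (all genes 25.2% and 12%). Their median change between control days was 0.71, against 0.0484 over all genes.

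NF-kappaB response genes (17 of 20 listed were tested) were called higher in 10 and lower in 0 cases in graft day 14, where 36.5% of all genes were higher and 17% lower, with a median log2 change of 1.68 against 0.26. Between control days 8 were higher and 0 lower, where 6.28% and 4.45% of all genes were, with a median of 2.25 against 0.0484. PTGS2, the inducible cyclooxygenase, stood at 0.91, 0.69, 0.85 and 1.33 FPKM in control day 14 and 36.3, 93.7, 166 and 15.1 FPKM in control day 30 (log2 change 4.84, adjusted p = 0.000248), and NFKBIA, the inhibitor of NF-kappaB, at 55.03, 171, 288 and 42.1 FPKM in control day 30, both highest in replicate 3. On day 30, 1 of the 17 (NFKBIE) was higher in grafts and 0 lower, against 26% and 11.6% of all genes. Of the feedback inhibitors of growth factor signalling (12 of 16 tested), 2 were higher and 4 lower in graft day 14 (all genes 36.5% and 17%), 3 and 0 in graft day 30 (26% and 11.6%), and 2 and 0 between control days (6.28% and 4.45%). The day 30 share was near that of all genes. SOCS1, an inhibitor of cytokine signalling, was higher in all 3 (1.52, 1.00 and 1.32, adjusted p = 0.000402, 0.0153 and 0.00915).

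Of the MAP kinase cascade and serum response factors (21 of 41 tested), 4 were higher and 4 lower in the grafts on each day, where 36.5% and 17% of all genes were on day 14 and 26% and 11.6% on day 30. Between control days 1 was higher and 0 lower (all genes 6.28% and 4.45%). SRF, serum response factor itself, stood at 51.3, 56.3, 54.6 and 54.1 FPKM in control day 14 and 24.4, 26.4, 20.2 and 20.3 FPKM in graft day 14 (log2 change -1.22, adjusted p = 1.52e-06), so SRF was lower in every graft of day 14, and EGR2 and EGR3 were higher in each of them. Between control days SRF means were 54.1 ± 2.06 and 53.3 ± 2.47 FPKM. Of the mRNA decay partners of ZFP36 (12 of 18 tested, mainly of the CCR4-NOT complex), 5 were higher and 2 lower in graft day 14, 3 and 1 in graft day 30, and 1 and 0 between control days. The shares of all genes were 36.5% and 17%, 26% and 11.6%, and 6.28% and 4.45%, so the higher shares of these partners in grafts were near those of all genes.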

How the data were processed

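Total RNA was extracted with TRIzol and sequenced in pairs on an Illumina instrument, per the labels' protocols. The authors deposited FPKM per transcript, and fastp, HISAT2, StringTie, RSEM and DESeq2 are named in the submitters' processing notes with no versions; the genome build is not given in the sources used here. FPKM divide by length and library total, so depth is unknown, no counting interval can be given, and a few abundant genes can shift all others. FPKM were summed per gene ID (24964 rows, 23669 genes). The 8657 genes that reached 1 FPKM in 4 or more of 20 libraries were tested on log2(FPKM + 1) with limma 3.58.1 in R 4.3.3, with 1 mean per group, 6 contrasts, a trended prior, two-sided tests and Benjamini-Hochberg adjustment over all genes tested. Of these genes, 6907 carry a symbol in the table and 613 were named through NCBI numbers in the RefSeq table (mOryCun1.1).

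All 35 members tested were named, and from each related list at most 4 genes per comparison. The members and lists were chosen with earlier results of these data known. The model was tested on simulated data with 200 of 8657 genes changed (graft against control on day 14). With 1 spread for all groups it made 148 calls, 6 of them false, and recovered 51% of changes of 1 log2 unit and 91% of changes of 2. With each group's own spread it made 202 calls, 46 of them false. The 34 alternatives comprised 20 that each left out 1 library and 14 others: pseudocount, filters, scalings, weights, groups fitted, a replicate block, genes with listed zeros and the treatment of similar libraries.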

Additional observations from a re-analysis of the deposited data

Results flagged for a closer look

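Within groups of 4, 12 libraries stood apart from the other 3 by Dixon's criterion on log2(FPKM + 1), among 175 gene and group sets examined. Chance marks about 1 set in 20.

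Among the immediate early genes, FOS of control day 14 replicate 2 was the highest of its group at 54.0 FPKM, although the group was narrow. FOSL1 of graft day 14 replicate 2 was the lowest at 1.38 FPKM, JUN of vein replicate 4 the lowest at 13.3 FPKM, and NR4A3 of vein replicate 2 the highest at 0.19 FPKM. IER3 stood apart in 3 groups, at 7.47 FPKM in control day 14 replicate 1 and 4.43 FPKM in vein replicate 2, where the other libraries were listed at 0, and listed at 0 in control day 30 replicate 4, where the others lay between 27.5 and 46.5 FPKM. ZFP36L2 was highest in control day 30 replicate 1 at 72.8 FPKM and lowest in graft day 30 replicate 1 at 64.1 FPKM.

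Among the DUSP genes, DUSP23 was highest in control day 30 replicate 1 at 38.9 FPKM, DUSP12 lowest in graft day 30 replicate 3 at 0.64 FPKM, and DUSP26 highest in graft day 14 replicate 2 at 0.25 FPKM, where the others were listed at 0.

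The graft effect differed between days, by the test of the difference itself in limma, for 5 genes. The difference (day 30 minus day 14, log2) was 1.91 for KLF9, 1.72 for KLF15 and 1.36 for KLF7, and -1.57 for ZFP36L1 and -2.33 for EGR2. Each of the 5 calls ended in at least 1 alternative, as given with the genes.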

How the results depend on the processing

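Counts of members called (higher and lower, of 35, or of 28 with a filter of 5 FPKM) changed by over 1.5 times as follows. For graft against control on day 14 (9 and 5), 15 were higher with only the groups compared, 8 lower with quantile normalization, 19 and 9 with weights for each library, 5 and 3 with control day 14 as 1 sample, and 3 and 3 with that and without the 4 mixture-like libraries. Leaving out 1 library gave 7 to 13 higher and 4 to 5 lower. For day 30 (4 and 4), 2 were higher with a filter of 5 FPKM, median-of-ratios scaling, TPM scaling, quantile normalization or without the mixture-like libraries, 10 and 7 with weights for each library, and 1 and 2 with both library changes. Leaving out 1 library gave 3 to 6 and 3 to 5. For the difference of graft effects (3 and 2), weights for each library gave 7 and 8, control day 14 as 1 sample 1 and 0, the omission of mixture-like libraries 0 lower, and both 0 and 0. Leaving out 1 library gave 3 to 4 and 2 to 3.

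Between graft days (12 and 1), 3 and 0 were called with only the groups compared and without the mixture-like libraries, 3 higher with weights per group, 0 lower with TPM scaling, 23 and 2 with weights for each library, and 1 and 0 with both library changes. Leaving out 1 library gave 6 to 14 and 0 to 2. Between control days (16 and 1), 10 were higher with only the groups compared, 0 and 0 with control day 14 as 1 sample or both changes, and 6 and 0 without the mixture-like libraries. The 1 lower call (KLF15) became 0 with a pseudocount of 0.1, no filter, TPM scaling, quantile normalization or a replicate block, and 3 with weights for each library. Leaving out 1 library gave 9 to 16 and 0 to 1. For vein (5 and 9), 2 were higher with a filter of 5 FPKM, median-of-ratios scaling or quantile normalization, 17 lower with weights for each library, 2 and 5 with control day 14 as 1 sample or without mixture-like libraries, and 0 and 3 with both. Leaving out 1 library gave 3 to 5 and 6 to 11. DUSP4, DUSP10 and DUSP19 did not pass the filter of 5 FPKM. Their calls in vein, and those of DUSP4 and DUSP19 on day 30, were therefore untested there and not lost. DUSP12 on day 14 turned from -0.09 to 0.64 (adjusted p = 0.0169) with weights for each library. The cause of these moves was not tested.

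Deviations of same-numbered graft and control libraries correlated between -0.107 and 0.127 on day 14 and between -0.18 and 0.063 on day 30. With 4 libraries per group, and those of control day 14 nearly identical, these values cannot show whether replicate numbers pair the samples. With the replicate block the counts were 9 and 5, 4 and 4, 4 and 2, 12 and 1, 16 and 0, and 5 and 8 in the order above. Counting each gene, comparison and alternative once, 2042 calls were kept and 355 lost, while 4502 uncalled changes stayed so, 156 became called and 1 reversed. Depth is unknown, values under 1 FPKM are close to the pseudocount, listed zeros may be failed estimates, and libraries that resemble each other make the spread, and so the p-values, too small if they share material.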
